A study of Mus musculus with 10 samples.

Results

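The arrays described here hold the RNA of mouse intestinal crypt cells that the labels call Flattop-expressing. They are 4 of the 10 MoGene 2.0 ST arrays of the study. These 4 were chosen by their group label, with earlier results of these data known. Each carries the number 04, 08, 38 or 42 in its title (replicates 1, 2, 3 and 4). The other 6 arrays, from stem cells sorted for high Lgr5, are not compared here. They entered the choice of 1 probe set per gene and the error of 1 added limma fit, named where it is used. The cells came from mice of genotype FltpT2AiCre crossed with Gt(ROSA)26mTmG, on a mixed C57BL/6J, CD1, 129/SvJ background, aged 3 to 6 months. All 4 arrays share that genotype, so no Cre-negative or reporter-only cells stand beside them. Single cells were sorted by flow cytometry. The sources used here name neither the gates nor the reporter colour collected. Nothing in the labels says that the 4 arrays came from separate animals, nor what the title numbers mark.

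Flattop is the protein of Cfap126, known from multiciliated cells, where it takes part in placing and docking the basal bodies of cilia under planar cell polarity. Planar cell polarity is a non-canonical Wnt route that aligns cells within the plane of an epithelium through Vangl, Celsr, Prickle, Frizzled and Dishevelled proteins. In the crypt of the small intestine, stem cells at the base give rise to absorptive enterocytes and to secretory Paneth, goblet, enteroendocrine and tuft cells. The mTmG reporter changes its membrane colour for good once Cre has acted, so a cell and its descendants stay marked after the Cre driver has been switched off.

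Each value below is a log2 intensity from robust multi-array averaging (RMA), and 4 values in a row stand in the order 04, 08, 38, 42. A gene is represented by its probe set with 1 symbol and the highest mean over all 10 arrays, which gave 22180 genes. The median gene had a mean level of 4.97 over the 4 arrays, the 90th percentile lay at 7.77 and the full range ran from 2.54 to 13.34. Genes above the 90th percentile are called the top 10% (2218 genes). Probe sets differ in how strongly they respond, so ranks describe signal and not RNA amounts. The values carry no detection calls, and even the lowest gene reads above 0.

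The alpha-defensins, whose members include the gene of highest level, are a family of close copies, and upstream sequences of 4 are shown for how alike they are. Of 10 measured alpha-defensins, 4 had a promoter window in RefSeq (GRCm38.p6). The 250 bases before the start of Defa21 (chr8:21025295-21025544, plus strand) and of Defa22 (chr8:21162027-21162276, plus strand) were the same at 250 of 250 positions, and those of Defa35 (chr8:21064788-21065037, plus strand) and Defa41 (chr8:21201354-21201603, plus strand) are set below them. Capitals mark TATAAA, the TATA-box core, which was searched on both strands.
Defa21: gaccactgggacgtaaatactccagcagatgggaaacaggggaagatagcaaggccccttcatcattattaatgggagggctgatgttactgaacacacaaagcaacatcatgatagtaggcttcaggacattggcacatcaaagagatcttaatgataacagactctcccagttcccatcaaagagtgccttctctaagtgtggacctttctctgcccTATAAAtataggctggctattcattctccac
Defa22: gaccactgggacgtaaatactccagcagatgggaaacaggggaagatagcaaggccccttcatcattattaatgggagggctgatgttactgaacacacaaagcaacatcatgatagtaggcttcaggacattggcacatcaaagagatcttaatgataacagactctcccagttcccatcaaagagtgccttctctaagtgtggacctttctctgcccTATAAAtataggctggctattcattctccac
Defa35: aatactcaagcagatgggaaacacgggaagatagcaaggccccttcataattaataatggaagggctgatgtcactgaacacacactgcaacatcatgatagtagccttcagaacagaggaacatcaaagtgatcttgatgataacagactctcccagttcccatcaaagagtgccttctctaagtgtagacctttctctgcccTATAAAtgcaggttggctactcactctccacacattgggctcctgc
Defa41: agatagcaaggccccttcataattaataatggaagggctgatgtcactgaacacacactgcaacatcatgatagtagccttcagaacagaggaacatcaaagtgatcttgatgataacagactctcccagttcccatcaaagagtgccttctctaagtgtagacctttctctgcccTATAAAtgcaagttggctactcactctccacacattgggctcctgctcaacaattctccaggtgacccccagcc
TATAAA stood in all 4 windows, 31 bases before the start in Defa21 and Defa22, 46 in Defa35 and 74 in Defa41. These distances run to the annotated start of each gene, and the windows were not aligned to one another. After TATAAA, the Defa41 window holds nearly the same letters as that of Defa35 and then runs further. TATAAA was present in 12.4% of the 32851 promoter windows of this length. The match is a description of the letters and says nothing about use of the site.

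The 4 arrays formed neither 1 tight group nor 2 clean pairs. Pearson correlations over all probe sets were 0.941 between 04 and 08, 0.903 and 0.911 between 42 and those arrays, and 0.869, 0.884 and 0.872 between array 38 and arrays 04, 08 and 42. In array 38, 102 genes lay at least 2 log2 units below each other array and 61 at least as far above. For the other 3 arrays the counts below were 8, 1 and 18 and the counts above 19, 17 and 36, in the order 04, 08, 42. Xist, the RNA made from the inactive X chromosome of female cells, read 11.48, 11.74, 5.02 and 11.32, and the Y-linked Eif2s3y read 3.48, 3.43, 8.72 and 3.63. Array 38 alone was therefore low in Xist and high in Eif2s3y, so the source animals included both sexes. Some list differences are given below with and without array 38, while the 2-fold counts of the lists all include it. For single genes, the 4 values show where array 38 stands apart.

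**Figure D1:**
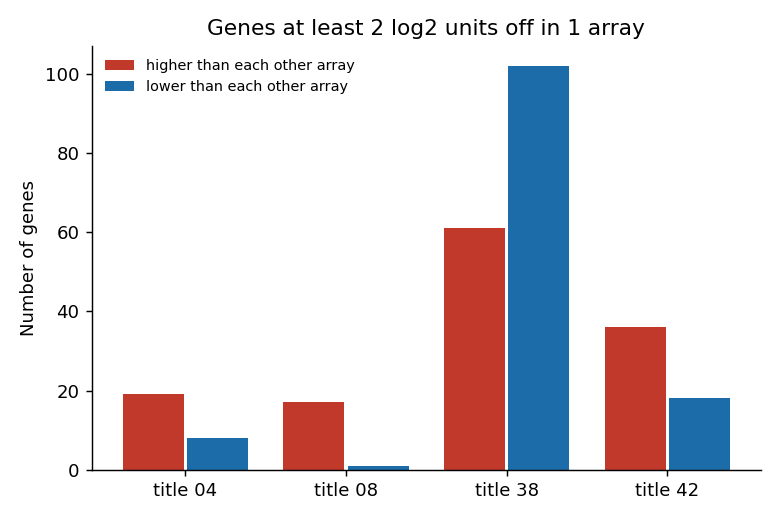
Number of genes (y axis) that lay at least 2 log2 units above (red) or below (blue) each of the other 3 arrays, for each Flattop array by its title number (x axis). Array 38 has the most of both, 61 above and 102 below, and array 08 the fewest below, 1.

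Arrays 38 and 42 were set against arrays 04 and 08 as a description, since 2 against 2 arrays cannot reach an exact permutation p below 0.333. A gene was counted when its 2 pairs of values did not overlap and the means of the pairs lay at least 1 log2 unit (2-fold) apart. By this count, 304 genes (1.37%) were higher and 1293 genes (5.83%) were lower in 38 and 42. Without the minimum difference, 6769 genes (30.5%) were higher and 4495 genes (20.3%) lower. limma on the 4 arrays called 0 genes in each direction (0% of 22180, Benjamini-Hochberg over all genes, threshold 0.05), with a smallest adjusted p of 0.270. At an unadjusted limma p under 0.05 there were 1087 genes higher and 1853 lower. The differences given below are thus values and not calls.

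The difference between the pairs depended on level, which matters for every list of abundant genes. Its median was 0.17 for genes below the median level, -0.12 from the median to the 90th percentile and -0.40 in the top 10%, against 0.07 over all genes. In the top 10%, 13.7% of genes were counted lower and 2.03% higher by the 2-fold rule. Leaving out array 38, the median in the top 10% was -0.28.

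Markers of epithelium went with the label of crypt cells. Of 15 pan-epithelial genes, 12 were in the top 10% and all 15 above the median gene, with a median level of 9.91. Epcam, an adhesion molecule of epithelial cells, read 10.85, 10.92, 10.78 and 10.81 (mean 10.84, SD 0.06, n = 4). Its 4 values lay within a narrow band in which the pairs barely differed. Cdh1, the E-cadherin of cell junctions, read 11.32, 11.25, 10.42 and 10.69, with both values of 38 and 42 below those of 04 and 08. In bulk RNA such as this, fewer cells of a type and less RNA per cell cannot be told apart. By the 2-fold rule 0 of the 15 genes were higher and 0 lower in 38 and 42, where 1.37% and 5.83% of all genes were. The list's median difference of -0.46 was close to the -0.40 of the top 10%.

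Cfap126 itself gave a moderate signal in cells named after it. It read 4.67, 4.93, 6.20 and 5.89 (mean 5.42, SD 0.74, n = 4), which put it at rank 8929 of 22180 genes. Arrays 38 and 42 were the higher ones and did not overlap arrays 04 and 08, which lay near the median gene. The means of the pairs differed by 1.25 (2.37-fold, limma SE 0.21, adjusted p = 0.271). Only 1 probe set with a single symbol represented Cfap126, so no second set of probes could be compared. The T cell genes described further on were also higher in arrays 38 and 42, and their part in the Cfap126 difference was not tested.

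Genes of the planar polarity route did not stand out by level. Of 36 listed members, 19 were above the median gene and 4 in the top 10%, with a median level of 5.03 against 4.97 for all genes. Of these 4, Rhoa (11.59, 11.72, 11.41 and 11.51) and Rac1 (9.70, 9.85, 9.50 and 9.47) are GTPases. The others were the ubiquitin ligase Smurf2 (7.91, 8.21, 7.83 and 8.30) and the Dishevelled adaptor Dvl3 (7.84, 7.37, 7.66 and 9.03). Rhoa and Rac1 were slightly lower in 38 and 42 without overlap, while Dvl3 stood apart through array 42 alone.

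The core membrane components read near or below the median gene. Vangl1 and Vangl2, transmembrane proteins of the core complex, had means of 4.26 and 4.45, with the 4 values of each within 4.06 to 4.45 and 4.16 to 4.64. Celsr1, an atypical cadherin that bridges neighbouring cells, read 4.98, 4.95, 5.03 and 5.45, and Fzd3, one of the Frizzled receptors of the route, read 3.20, 3.36, 3.49 and 3.60. The Fzd3 mean of 3.41 was the lowest of the 36.

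Among the ligands and co-receptors, Wnt5a, the classical non-canonical ligand, read 4.20, 3.89, 4.19 and 4.12, and Wnt4 read 4.94, 4.54, 5.26 and 5.52. The largest spread of the list belonged to Ryk, a Wnt co-receptor, at 8.77, 7.31, 6.09 and 6.39 (SD 1.20). Ryk lay above the other arrays in 04 and was lowest in 38. With Mapk8, the JNK1 kinase downstream of the route (6.71, 7.13, 4.70 and 6.62), it was counted lower in 38 and 42, and 0 of the 36 were counted higher. The 2 of 36 were near the 5.83% of all genes counted lower. For Mapk8 array 38 was the low array, with 42 near 04.

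Genes of motile cilia, the structures that Flattop serves in other organs, were low. Of 14 measured genes, 1 was above the median gene and 0 were in the top 10%, with a median level of 4.33. Foxj1, the transcription factor that drives motile ciliogenesis, read 3.94, 4.23, 4.18 and 4.23, and Mcidas, which starts the multiciliated cell programme, read 4.77, 4.74, 4.72 and 5.04. The dynein heavy chains Dnah5, Dnah9 and Dnah11 had means of 3.97, 4.41 and 4.57. The SD of the 14 genes ran from 0.06 to 0.33, and all 14 differences were between 0.05 and 0.45 in favour of 38 and 42. The median difference of 0.19 was near the 0.17 of all genes below the median level, and a second quantile normalisation brought it to 0.02.

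**Figure D2:**
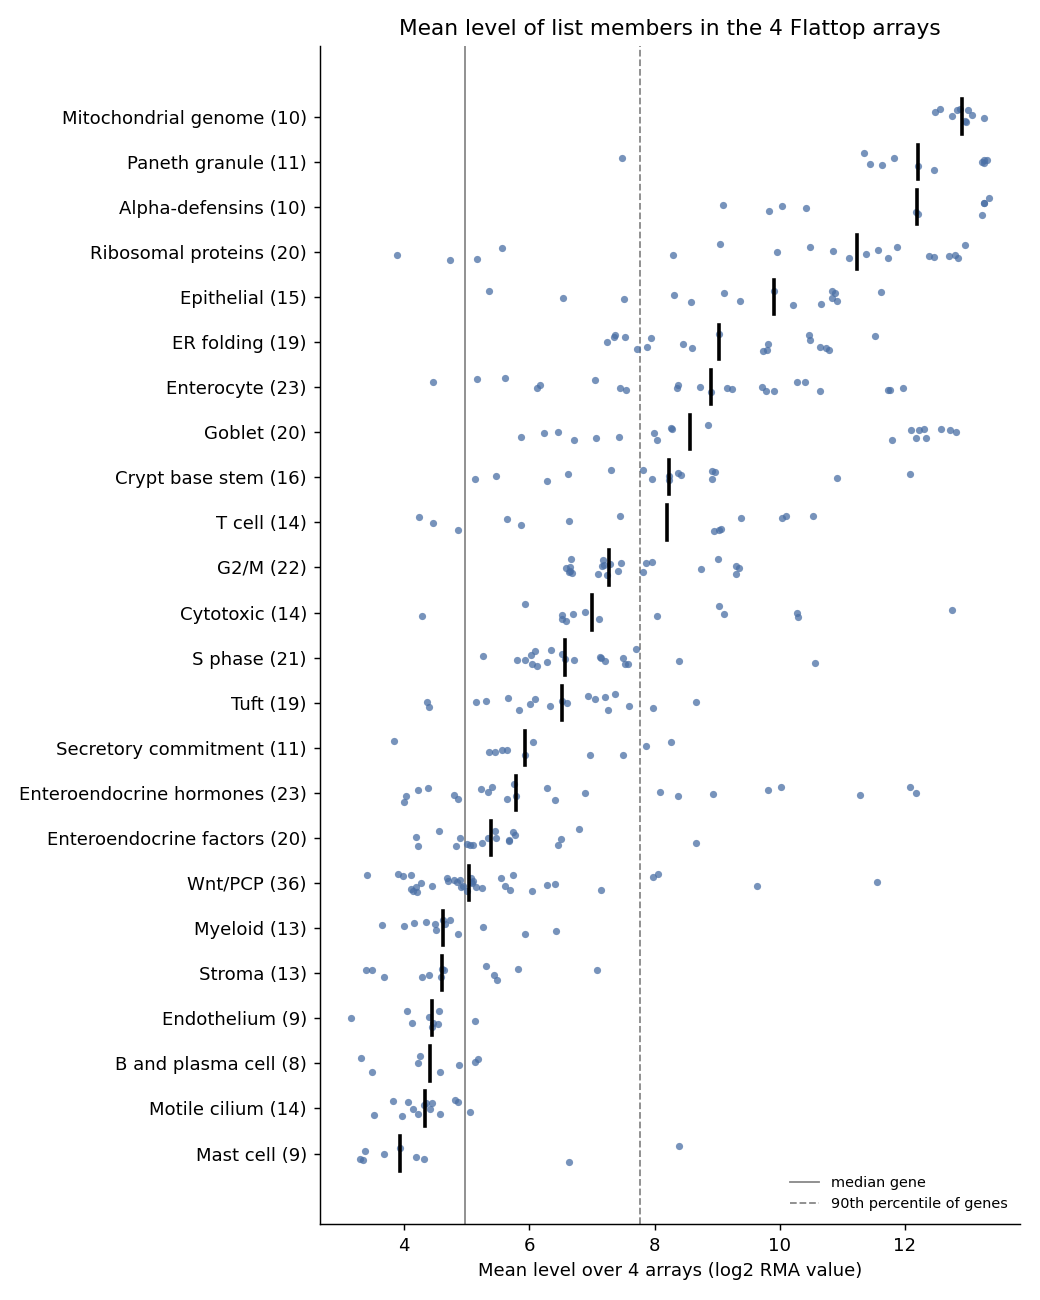
Mean level over the 4 Flattop arrays (x axis, log2 RMA value) of each member of 24 gene lists (rows, number of measured genes in brackets), with the list median as a black bar, the median gene as a solid line and the 90th percentile of genes as a dashed line. The mitochondrial genes and 10 of the 11 Paneth granule genes lie right of the dashed line, while the 14 motile cilium genes lie around and below the median gene.

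Paneth cell products gave the strongest signals of any lineage. Paneth cells sit at the crypt base and secrete antimicrobial proteins. Defa39 ranked 1 among all genes, Lyz1, the Paneth lysozyme, ranked 2 and Defa24 ranked 3. Defa39 read 13.33, 13.25, 13.35 and 13.42 and Lyz1 13.46, 13.30, 13.13 and 13.36. Every one of these values was above 13, and the pairs overlapped for Lyz1. All 11 measured granule genes were above the median gene and 10 were in the top 10%, with a median level of 12.20, and all 10 alpha-defensins were in the top 10%.

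The alpha-defensin list was added after values were seen. Its median SD was 0.23, against 0.28 over all genes and 0.45 in the top 10%. Arrays are known to respond less to added RNA near the top of their range. Defa21 read 13.47, 12.96, 13.21 and 13.31 and Defa22 13.46, 12.95, 13.18 and 13.44. These 2 probe sets differed by at most 0.13 in any array, and whether their probes tell the 2 transcripts apart was not tested. Defa33 varied more, at 11.19, 10.35, 9.26 and 10.88, with array 38 lowest.

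Itln1, an intestinal lectin of Paneth and goblet cells, read 12.15, 11.76, 11.49 and 11.93 (mean 11.83, SD 0.28, rank 84). Array 04 was highest and array 38 lowest, the pairs overlapped, and their means differed by -0.25. Mmp7, the protease that activates defensins, read 12.06, 11.61, 11.13 and 11.76 and followed the same order of highest and lowest array. Pla2g2a, named for a secreted antimicrobial phospholipase, was the exception at 9.67, 8.57, 4.89 and 6.80 (SD 2.09). RefSeq lists this gene as a transcribed pseudogene. It was the 1 granule gene of 11 counted lower in 38 and 42, by 3.27 log2 units (9.67-fold, limma SE 0.76, adjusted p = 0.295). Of all genes 5.83% were counted lower, and of the top 10% 13.7%. From the median to the 90th percentile, where Pla2g2a lay, the share was 10.3%.

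Niche and identity genes of Paneth cells were far less prominent than the granule products. Of 11, 8 were above the median gene and 1 was in the top 10%. That gene was Kit, a receptor tyrosine kinase, at 8.28, 8.57, 8.44 and 8.41, with the 4 arrays within 8.28 to 8.57. Wnt3, the canonical ligand by which Paneth cells sustain stem cells, read 4.86, 4.41, 4.12 and 4.35, and Egf read 3.58, 3.60, 4.41 and 4.09. Both means lay below the median gene. Of the Reg lectins, antimicrobial C-type lectins, 4 of 7 were in the top 10%. Reg3b read 11.38, 11.19, 11.33 and 11.49 and Reg4 11.83, 11.53, 9.95 and 11.47, so Reg3b was alike in all arrays while Reg4 was lower in 38 alone. Reg1 read 11.20, 11.16, 10.11 and 12.36, highest in 42 and lowest in 38.

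Goblet cell genes were the next most abundant secretory group. Of 20 listed genes all were above the median gene and 14 in the top 10%, 9 of them above a level of 11. Spink4, a protease inhibitor of goblet cells, read 13.10, 12.81, 12.57 and 12.76, and Muc2, the gel-forming mucin of intestinal mucus, read 12.69, 13.03, 12.86 and 12.28. Array 42 was the lowest for Muc2, and the pairs overlapped. Agr2, a disulfide isomerase needed for mucin folding, read 12.76, 12.60, 12.42 and 12.50 with all 4 values inside 12.42 to 12.76.

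The goblet genes read lower in 38 and 42, by very different amounts. All 20 differences were negative, the median was -0.69, and 5 of 20 were counted lower, against 5.83% of all genes and 13.7% of the top 10%. Clca1, a mucus-processing protein at a mean level of 12.30, differed by -0.82, and Spink4 by -0.29. Retnlb, a resistin-like antimicrobial protein, read 9.44, 8.19, 4.84 and 4.39. It was high in 04 and 08 and near the median gene in 38 and 42, a difference of -4.21 (18.4-fold lower in 38 and 42, limma SE 0.48, adjusted p = 0.270). In the limma fit on all 10 arrays, which takes its error from both cell groups, the same difference had an adjusted p of 0.0435. Pdia5, a disulfide isomerase, read 8.33, 8.07, 5.24 and 6.65, and Ern2, the IRE1 beta stress sensor of mucus cells, read 9.21, 8.76, 7.70 and 7.47. For both, 38 and 42 lay below 04 and 08.

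The genes that commit crypt cells to the secretory fate were present at middle levels. Atoh1, the factor required for secretory lineages, read 9.56, 8.57, 6.85 and 8.05 (mean 8.26), and its Notch-driven counterpart Hes1 read 8.30, 8.15, 6.80 and 8.21. Atoh1 was highest in 04 and lowest in 38, whereas Hes1 was alike in 3 arrays and low in 38. Of the 11 genes of this list 2, Atoh1 and Hes1, were in the top 10%. Dll1, the Notch ligand of secretory progenitors, read 6.44, 6.01, 5.60 and 5.65 and Dll4 5.36, 5.53, 4.91 and 5.16, both somewhat lower in 38 and 42.

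Enteroendocrine hormones were among the brightest genes, but only some of them. Of 23 hormone and granule genes 8 were in the top 10% and 17 above the median gene, and the list ran from 3.99 to 12.18. Gip, the incretin of K cells, read 12.49, 12.12, 11.87 and 12.25 (mean 12.18, SD 0.26, rank 51). Its order, 04 highest and 38 lowest, was that of Itln1, with overlapping pairs and a difference of -0.24. Sst, somatostatin of D cells, read 12.17, 11.85, 12.23 and 12.10, and Chgb, a granin of hormone granules, read 11.28, 11.21, 11.17 and 11.44. Neither showed a split between the pairs.

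Ghrelin, glucagon, secretin and cholecystokinin followed. Ghrl read 9.89, 9.42, 10.84 and 9.89 and was highest in 38, Gcg read 10.52, 9.91, 9.20 and 9.60 and Sct had a mean of 8.93 (SD 0.83), both highest in 04 and lowest in 38, and Cck read 9.11, 8.46, 7.41 and 8.54. Chga, the other granin, read 8.43, 7.75, 8.28 and 7.88.

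Some hormones of L, N and enterochromaffin cells varied widely. Tac1, the substance P precursor, read 8.09, 6.33, 3.78 and 4.80 with 04 highest and 38 lowest. Nts, neurotensin, read 8.79, 5.12, 4.03 and 7.71, high in 04 and 42 and low in the other two. Iapp, amylin, was the reverse case at 4.73, 4.62, 7.18 and 4.38, above the median gene by more than 2 only in array 38. Of the 23 genes 6 were counted lower in 38 and 42 (Tac1, Cpe, Scg3, Pcsk1, Slc18a1 and Sct) and 0 higher, against 5.83% of all genes and 13.7% of the top 10% counted lower. Insl5, a hormone of colonic L cells, stayed low at 3.97, 3.87, 4.07 and 4.06.

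The transcription factors of this lineage were modest in signal. Of 20 measured, 15 were above the median gene and 1, Sox4, was in the top 10%. Sox4, expressed in early progenitors, read 9.76, 9.47, 6.65 and 8.80, lowest in 38. Neurog3, the factor that starts endocrine differentiation, read 7.08, 7.21, 5.27 and 6.24, and Neurod1, which acts after it, read 3.85, 4.28, 4.32 and 4.29. The Neurod1 mean of 4.19 was at percentile 30.2 of all genes although hormone transcripts gave strong signals. Insm1, a zinc finger factor of endocrine cells, read 6.41, 6.31, 6.70 and 6.60, with 38 and 42 slightly above 04 and 08. Of the 20 factors 4 (Neurog3, Rfx6, Foxa1 and Sox4) were counted lower in 38 and 42 and 0 higher, against 5.83% of all genes and 10.3% of those from the median to the 90th percentile counted lower.

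Tuft cells, the chemosensory cells of the epithelium, were represented at lower levels and unevenly between the pairs. Of 19 genes 2 were in the top 10%, Sh2d6 (9.37, 9.00, 8.11 and 8.17) and Rgs13 (9.39, 8.49, 5.94 and 8.11). The lineage factor Pou2f3 read 7.32, 7.59, 5.19 and 6.00, and the kinase Dclk1 7.75, 7.32, 6.42 and 6.24. Both were higher in 04 and 08. Alox5 and Alox5ap, which together make leukotrienes, read 9.36, 9.08, 6.13 and 5.77 and 8.88, 8.33, 6.47 and 5.13, differences of -3.27 and -2.81.

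By the 2-fold rule 7 of 19 tuft genes were counted lower in 38 and 42 and 1 higher, against 5.83% and 1.37% of all genes. From the median to the 90th percentile, 10.3% of genes were counted lower and 2.33% higher. The 1 tuft gene counted higher was Lrmp at 5.98, 6.00, 7.07 and 7.37, a gene that lymphocytes are also known to express. Trpm5, the taste channel of tuft cells, differed less at 7.35, 7.66, 7.09 and 6.96.

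Enterocyte genes were abundant and followed array 42 rather than the title pairs. Of 23 genes 15 were in the top 10%. Fabp2, a fatty acid binding protein, read 12.16, 11.94, 11.58 and 12.16, and Alpi, the intestinal alkaline phosphatase, read 9.39, 9.75, 9.44 and 11.07. Lct, the brush border lactase, read 6.54, 7.77, 5.84 and 9.63 (SD 1.66), and Slc2a2, the basolateral glucose transporter, read 5.80, 5.47, 5.45 and 7.97. For Alpi, Lct and Slc2a2 array 42 was the highest, and the other pair member, array 38, was at or near the bottom. The mean over the 23 genes was 8.48, 8.83, 7.93 and 9.29, and 0 of them were counted in either direction. Without array 38, the median difference turned from -0.15 to 0.56, and without array 08 to 0.22.

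Genes of single gut regions gave mixed readings. Of 5 ileal genes 3 were above the median gene and 2 in the top 10%, of 6 duodenal and jejunal genes 6 and 1, and of 6 colonic genes 3 and 1. Fabp6, the ileal bile acid binding protein, read 12.45, 12.45, 12.34 and 11.75, low only in array 42, while Gata4, a factor of the proximal small intestine, read 8.05, 7.54, 7.55 and 8.10. The ileal bile acid transporter Slc10a2 stayed low at 3.98, 3.76, 4.81 and 3.70. Of the colonic list, Hoxb13, a marker of the distal colon, read 4.07, 4.42, 4.25 and 4.14, below the median gene, whereas the carbonic anhydrase Car4 read 9.58, 9.79, 8.59 and 9.59 and the chloride exchanger Slc26a3 7.66, 8.64, 5.93 and 6.34, with the mean of each above it.

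Crypt base stem cell genes were well represented in these cells. All 16 measured genes were above the median gene and 11 in the top 10%, with a median level of 8.23. Olfm4, a secreted marker of crypt base cells, read 12.34, 12.57, 11.79 and 11.60 (mean 12.08, rank 61). Lgr5, the R-spondin receptor that marks these stem cells, read 9.19, 9.65, 6.44 and 8.21 (mean 8.37, SD 1.42, rank 1398). The second probe set of Lgr5 read 9.38, 9.62, 6.62 and 8.75, so both sets were highest in 08 and lowest in 38.

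Ascl2, the stem cell transcription factor, was dim at 5.29, 5.34, 4.66 and 5.25, and Axin2, a canonical Wnt feedback gene, read 7.84, 8.42, 7.61 and 7.37. Prom1, a membrane protein of crypt base cells, read 8.80, 8.91, 7.49 and 7.68, and Sox9, a factor of crypt base and secretory cells, 9.38, 9.46, 7.84 and 8.98. Both were higher in 04 and 08.

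Of the 16 genes 15 were lower in 38 and 42 and the median difference was -0.87, beyond the -0.40 of the top 10%. The 2-fold rule counted 6 of 16 lower (Lgr5, Cdca7, Znrf3, Prom1, Slc12a2 and Sox9) and 0 higher. Of all genes 5.83% were counted lower, and of the top 10% 13.7%. Lgr5 differed by -2.09 (4.27-fold lower in 38 and 42, limma SE 0.64, adjusted p = 0.341). Without array 38 the list's median difference was -0.80. Rnf43 and Cdk6 did not follow, at 8.42, 8.49, 8.95 and 7.82 and 8.53, 9.31, 9.67 and 8.37, with overlapping pairs. The genes of reserve stem cells were mixed: Lrig1, a brake on growth factor receptors, read 8.19, 8.51, 5.80 and 7.36, while Bmi1, a Polycomb component, read 5.32, 5.69, 5.57 and 5.58.

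Proliferation genes were well represented too, and their median differences, like that of the stem cell genes, were negative. Of 22 G2/M genes all were above the median gene and 8 in the top 10%, and of 21 S phase genes all were above the median and 2 in the top 10%. Mki67, the proliferation antigen, read 9.78, 9.76, 8.52 and 9.35, and Pcna, the replication clamp, read 10.83, 10.54, 10.38 and 10.53. Pcna was nearly alike in all arrays, whereas Mki67 was lowest in 38. Mcm4, a subunit of the replicative helicase, read 8.07, 8.05, 6.38 and 6.36, and Plk1, a mitotic kinase, 8.62, 8.47, 7.27 and 7.07. In both, the 2 arrays of each pair lay close together and the pairs far apart.

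The median differences were -0.80 for G2/M and -0.62 for S phase genes, and 5 of 22 and 3 of 21 were counted lower, with 0 higher in either list. Of all genes 5.83% were counted lower, of those from the median to the 90th percentile 10.3% and of the top 10% 13.7%, so the S phase count was near that of genes of like level. Without array 38 the medians were -0.56 and -0.51. Ccnb2, cyclin B2, read 9.74, 9.33, 7.07 and 8.86, and Kif23, a kinesin of cell division, 8.10, 7.95, 4.61 and 8.13. Kif23 was low in 38 alone. Among inhibitors of the cycle, Cdkn1a read 9.85, 8.80, 8.88 and 9.41, and 1 of 7 was in the top 10%.

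**Figure D3:**
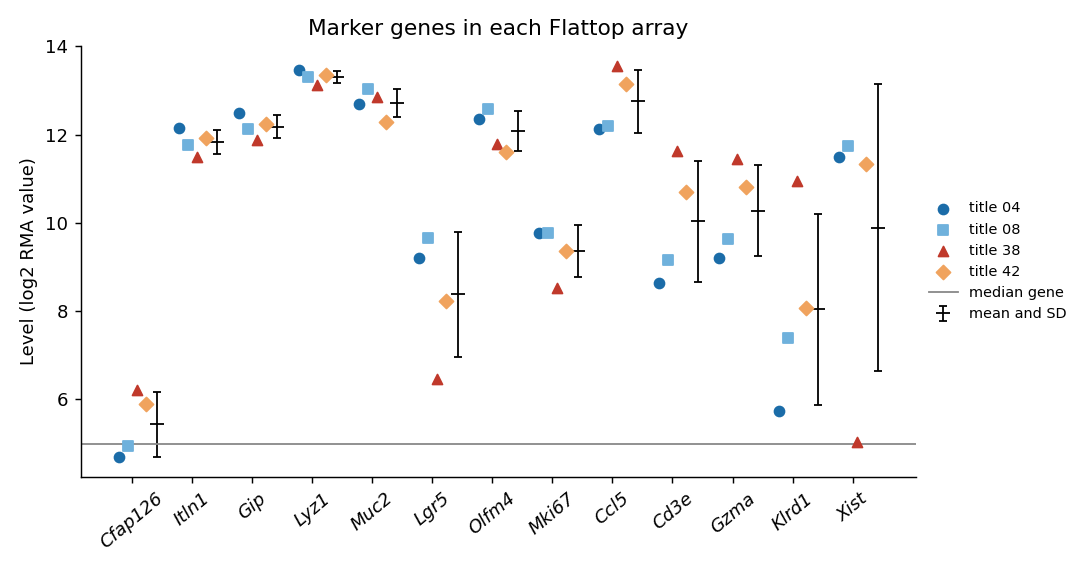
Level (y axis, log2 RMA value) of 13 marker genes in each Flattop array (coloured symbols, by title number), with the mean and SD over the 4 arrays in black and the median gene as a grey line. Ccl5, Cd3e and Gzma are higher in 38 and 42, Lgr5 and Olfm4 are lower there, and Xist is low in array 38 only, at 5.02.

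Genes of T cells were abundant by their mean over the 4 arrays, next to the epithelial ones, and less so in 04 and 08. The list mean was 6.51 and 6.99 in 04 and 08, below the 90th percentile of genes at 7.77. In 38 and 42 it was 8.79 and 8.05. Intraepithelial lymphocytes, many of them cytotoxic T cells that carry the integrin Itgae, are known to lie between the cells of the gut lining. Of 14 T cell genes 11 were above the median gene and 7 in the top 10%. Cd3e and Cd3g, chains of the T cell receptor complex, read 8.64, 9.15, 11.63 and 10.70 and 9.24, 9.18, 11.02 and 10.98. Even the lowest of these values exceeded 8, and those of 38 and 42 exceeded 10. Itgae read 7.05, 8.18, 10.80 and 9.74, and Ptprc, the CD45 antigen of all leukocytes, 7.30, 8.98, 10.17 and 9.80.

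The coreceptors separated. Cd8a read 8.98, 8.76, 9.25 and 10.52 and was in the top 10%, whereas Cd4 read 4.50, 4.43, 4.45 and 4.45, below the median gene, with an SD of 0.03. Cd8b1, the CD8 beta chain, read 4.31, 4.58, 9.03 and 4.60 and was high in array 38 alone. Cd5, a receptor of conventional T cells, read 4.55, 4.74, 5.36 and 4.79, and Cd2 3.97, 4.18, 4.25 and 4.58, both near or below the median gene.

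Cytotoxic effectors and lymphocyte chemokines were equally clear. Ccl5, the chemokine RANTES, read 12.12, 12.19, 13.57 and 13.16 (mean 12.76, SD 0.72) and ranked 22 of all genes. Arrays 38 and 42 were above 04 and 08 by 1.21 (2.31-fold, limma SE 0.22, adjusted p = 0.271). Gzma and Gzmb, the granzymes A and B of killer cells, read 9.20, 9.64, 11.45 and 10.82 and 7.74, 8.49, 10.60 and 9.32. Xcl1, the chemokine lymphotactin, read 8.82, 10.14, 10.67 and 11.55, the only one of these with 42 highest. Prf1, the pore-forming perforin, read 6.13, 6.02, 7.81 and 6.13, high in 38 alone, and Ifng read 4.06, 3.84, 4.91 and 4.33, below the median gene in every array. Of 14 genes of this list 13 were above the median gene and 6 in the top 10%.

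Of the 24 lists plotted by difference, the lymphocyte lists had the largest median differences in favour of 38 and 42. By the 2-fold rule 11 of 14 T cell genes and 9 of 14 cytotoxic genes were counted higher in 38 and 42 and 0 lower, against 1.37% of all genes and 2.03% of the top 10%. Median differences were 1.82 and 1.62, and without array 38 they were 1.54 and 1.15. The mean over the T cell genes was 6.51, 6.99, 8.79 and 8.05, and over the cytotoxic genes 6.76, 7.40, 9.15 and 8.12, so array 38 was highest and array 04 lowest in both. Klrd1, the CD94 receptor, spanned the widest range at 5.74, 7.38, 10.94 and 8.07 (SD 2.17), a 7.7-fold difference between pairs (limma SE 1.14, adjusted p = 0.386). Fasl, a death ligand of killer cells, read 5.23, 5.26, 8.29 and 8.02, a difference of 2.91 with a limma SE of 0.19 (adjusted p = 0.270).

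In the limma fit on all 10 arrays 11 genes (0.0496%) were called higher in 38 and 42 and 4 (0.018%) lower. The 11 included Stat4 (3.71, 4.76, 8.53 and 8.52), a transcription factor of interleukin-12 signalling (limma adjusted p = 0.00393), Gimap7, a lymphocyte GTPase (4.99, 4.79, 8.69 and 8.03), Fasl, Cd3g and Cd96 (5.75, 6.70, 9.68 and 9.28). The 4 included Retnlb and Prim1, a DNA primase subunit (7.07, 7.73, 4.35 and 3.72). limma on the 4 arrays alone called 0. The fit on 10 arrays has more residual degrees of freedom and assumes the same error in both cell groups.

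Crypt base, goblet, tuft and cell cycle lists were among those lower in 38 and 42 by median difference. The T cell and cytotoxic lists differed between the same arrays, with opposite sign. Enteroendocrine hormones and factors had smaller median differences, -0.35 and -0.27, with 6 of 23 and 4 of 20 genes counted lower. What part the lymphocyte signal has in the lower epithelial values was not tested.

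**Figure D4:**
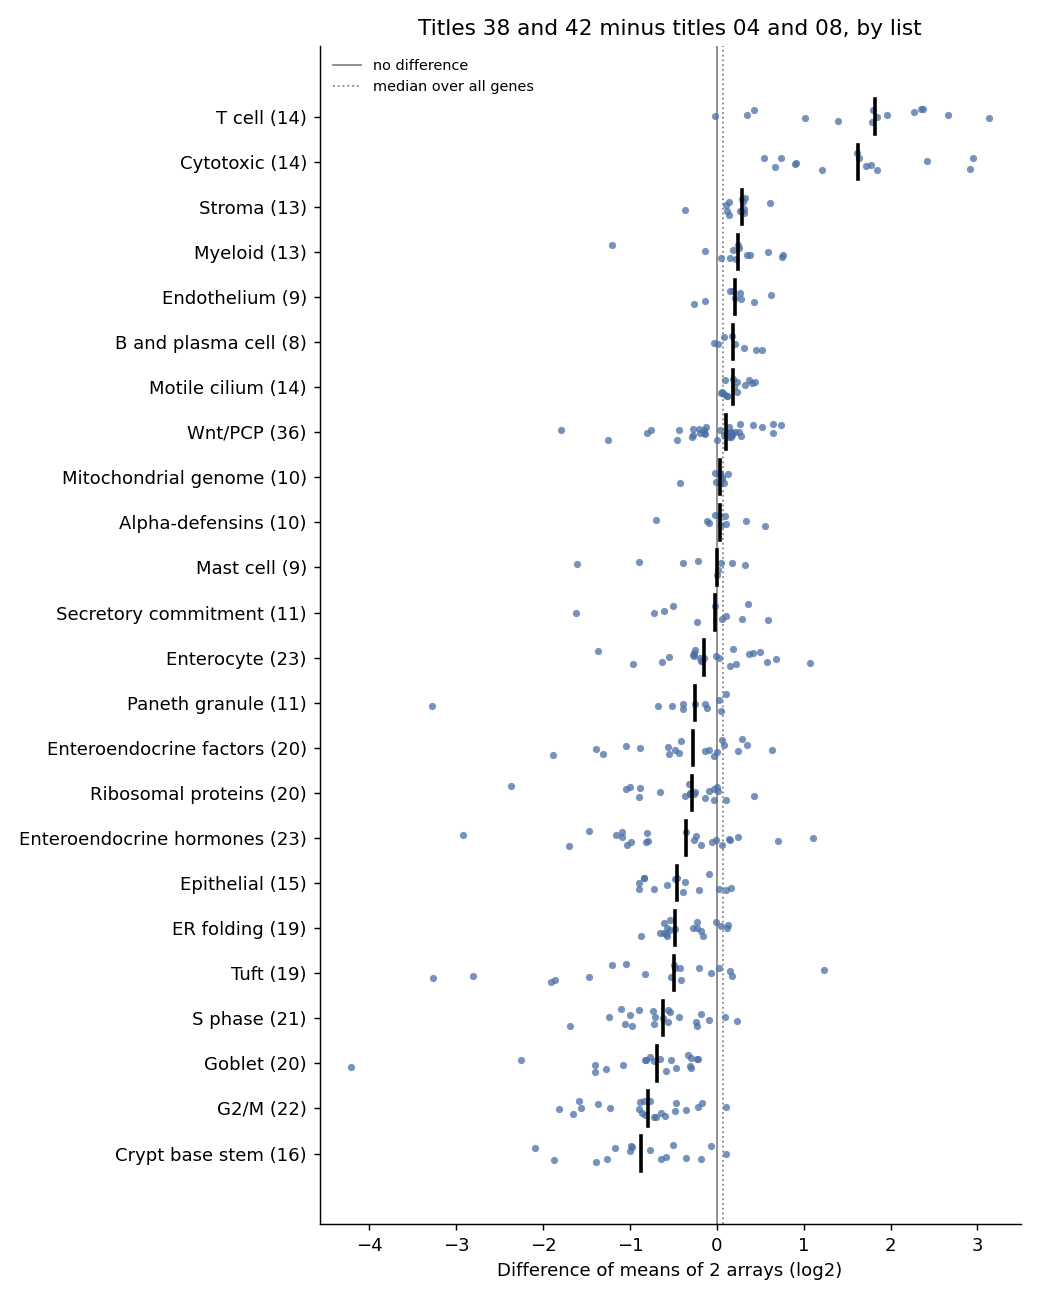
Difference between the mean of arrays 38 and 42 and the mean of arrays 04 and 08 (x axis, log2) for each member of 24 gene lists (rows, number of measured genes in brackets), with the list median as a black bar, 0 as a solid line and the median over all genes as a dotted line. T cell and cytotoxic genes lie to the right with medians of 1.82 and 1.62, and crypt base stem cell genes lie furthest left with a median of -0.87.

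Other non-epithelial cell types left little trace by the same measure. Of 8 B and plasma cell genes 2 were above the median gene and 0 in the top 10%, and Cd79a, a chain of the B cell receptor, read 4.18, 4.35, 4.38 and 4.09. Of 13 myeloid genes 3 were above the median, led by Cx3cr1, a chemokine receptor that some lymphocytes also carry (6.08, 6.17, 6.96 and 6.46), and Csf1r, the macrophage growth factor receptor, read 4.13, 4.22, 4.42 and 4.61. Of 13 stromal genes 5 and of 9 endothelial genes 1 were above the median, and 0 of either were in the top 10%. Pdgfra of fibroblasts read 3.41, 3.26, 3.58 and 3.69 and Kdr of endothelium 4.02, 3.87, 4.24 and 4.05. Vim, an intermediate filament that lymphocytes also contain, was the brightest stromal gene at 6.84, 7.00, 7.06 and 7.40.

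Mast cells were a partial case. Mcpt1, a protease of mucosal mast cells, read 8.52, 8.23, 8.20 and 8.58, in the top 10% and alike in all 4 arrays, and Mcpt2 read 8.15, 6.73, 5.26 and 6.39, lowest in 38. The other 7 genes of that list, among them the mast cell carboxypeptidase Cpa3 (4.27, 3.99, 3.56 and 3.91) and the IgE receptor chain Fcer1a (3.31, 3.61, 2.92 and 3.55), were below the median gene.

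Of the 41 gene lists, that of the mitochondrial genome, added after values were seen, had the lowest median SD and the highest median level. All 10 measured were in the top 10%, with a median level of 12.92 and a median SD of 0.06, against 0.28 over all genes and 0.45 in the top 10%. ND4, a subunit of complex I, read 13.17, 13.26, 13.32 and 13.27, and ND1 12.85, 12.86, 12.89 and 12.89. ND3 was less even than the others, at 13.30, 13.06, 12.74 and 12.78 (SD 0.26). Like the defensins, the mitochondrial genes sat close to the upper end of the signal range. The nuclear-encoded respiratory genes were less even. Ndufa4 read 12.20, 11.83, 11.45 and 11.93, whereas Ndufa1, another complex I gene, read 11.05, 10.79, 6.98 and 10.81, with array 38 at least 3.81 below the other 3 arrays.

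Several abundant genes showed this pattern of 1 low array. Fabp5, a fatty acid binding protein, read 10.77, 10.12, 4.08 and 10.20, Rab26os, an antisense transcript, 10.42, 10.28, 3.85 and 10.38, and Cox7a1, a cytochrome oxidase subunit, 9.98, 8.65, 4.69 and 9.60. Array 38 was the low one in each, and the other arrays were at least 6.04, 6.42 and 3.96 above it. For Xist that gap was 6.31. Rpl3, a ribosomal protein, read 10.25, 10.23, 6.48 and 9.26, while Rps18 read 12.95, 12.99, 12.91 and 12.97 (SD 0.04).

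The means of the pairs lay more than 4 apart for 7 genes, 1 of them a miRNA gene, and Retnlb and Stat4 are given above. Mterf1b, a relative of a mitochondrial transcription terminator, read 7.75, 8.52, 3.08 and 2.82, Ccpg1os 9.13, 8.14, 4.27 and 3.85, and Bex1 differed by -4.45, each with both values of 38 and 42 below both of 04 and 08. In the other direction, Mndal, an interferon-inducible gene, read 3.24, 5.99, 8.95 and 8.31. Oas1g and Tlcd1 were as variable but cut across the pairs, at 8.87, 5.81, 3.12 and 8.54 and 5.22, 7.89, 9.26 and 3.92. Over all genes, 937 (4.22%) had an SD above 1.

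**Figure D5:**
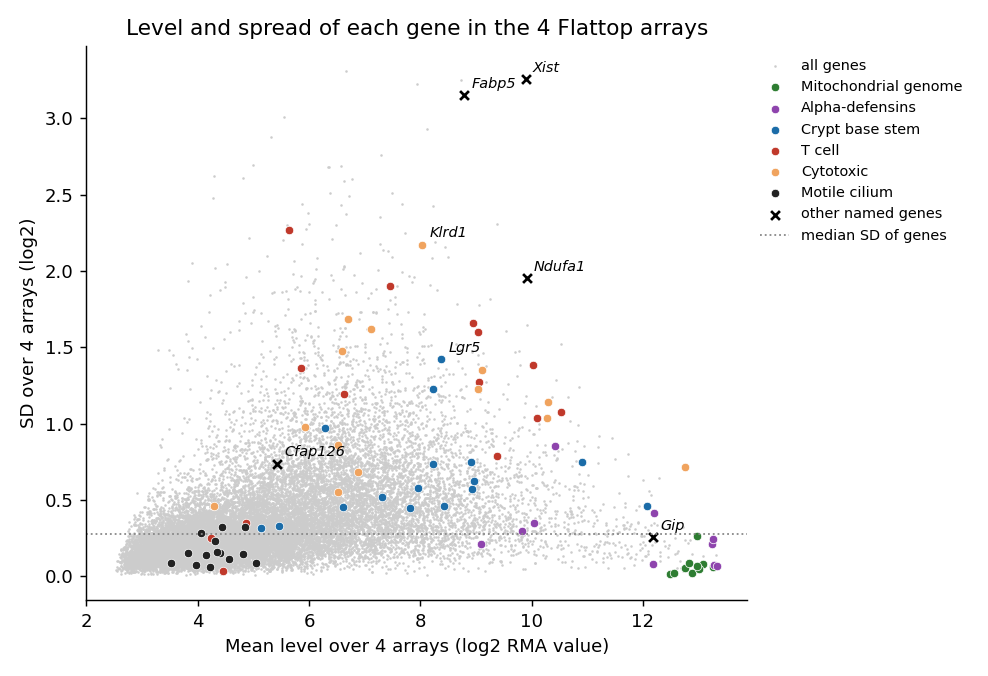
Spread (y axis, SD over the 4 Flattop arrays, log2) against mean level (x axis, log2 RMA value) of 22180 genes (grey), with 6 gene lists in colour, 5 further named genes as crosses and the median SD of 0.28 as a dotted line. Mitochondrial genes lie at the lower right, T cell and cytotoxic genes lie high at middle and upper levels, and Xist is near the top.

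Stress, folding and energy genes were high, as a description of the sorted material. Of 21 immediate early and heat shock genes, which sorting and dissociation can induce, all were above the median gene and 8 in the top 10%. Jund read 8.84, 8.84, 8.83 and 10.63 and Fosb 5.83, 6.21, 6.16 and 8.05, both highest in array 42, while Hspa1a, an inducible heat shock protein, read 10.08, 9.05, 7.56 and 7.14 and was highest in 04. The list mean was 7.58, 7.34, 7.43 and 8.06, so array 42 was highest. Of 19 endoplasmic reticulum folding genes 14 were in the top 10%, led by Hsp90b1 at 11.76, 11.81, 10.99 and 11.51, and of 19 respiratory genes 16 were. The median differences of the folding and respiratory lists, -0.48 and -0.40, were near that of the top 10%. That of the immediate early and heat shock list was 0.38. Against 04 and 08, it was 0.36 for array 42 alone and 0.14 for array 38 alone. By the 2-fold rule 1 of the 21 genes was counted higher in 38 and 42 and 1 lower, against 1.37% and 5.83% of all genes.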

How the data were processed

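Per the labels' protocols, the miRNeasy Micro kit gave the RNA, which Ovation Pico WTA amplification and an Encore Biotin module prepared for hybridisation. The authors deposited log2 values, 1 for each probe set, made with RMA in oligo 1.38.0 per the submitters' processing notes. Scanner files were not used here, so signal over background is unknown. Of 41345 probe sets, 23521 had 1 gene symbol, 1814 had several and 16010 were unnamed. Dim probe sets were kept. Ranks, SDs and pair differences were computed with pandas 2.3.3, and titles 38 and 42 were set against 04 and 08 with limma 3.58.1 (R 4.3.3, two-sided, Benjamini-Hochberg). On simulated data with 22180 genes, limma recovered 0% of 62 genes changed by 1 log2 unit, 14.3% of 56 changed by 2 and 58.5% of 82 changed by 4. All other genes were left unchanged, and the SD of each gene within the pairs was taken as its true SD. The real share of changed genes and real spreads may differ, so these figures hold for that setting only. The p-values cover only variation among these arrays, which may be technical. The arrays, gene lists and rules were chosen with earlier results of these data known. The lists for gastric, natural killer, mitochondrial genome and alpha-defensin genes were added after values were seen. Named genes were the markers, the 15 of highest level, list members of highest level or SD, 12 of high SD and 10 of large difference each way. The SD and difference genes were the largest only among genes with a mean above the median gene, with miRNA and some other gene classes left out. The pairs of the difference genes did not overlap. Stat4 and Mterf1b passed the level rule through the pair in which they read high. Eif2s3y, with an SD of 2.61 and a mean of 4.81, was not among the SD genes. Other genes are list members given for their list's sentence, or were chosen after their values were seen. Alternatives were other normalisations, probe set rules, thresholds, fits and each array left out.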

Additional observations from a re-analysis of the deposited data

Results flagged for a closer look

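Among the named genes, 19 of 249 (7.63%) had 1 array whose gap to the nearest of the others exceeded Dixon's 95% critical value for 4 samples, as did that of 1283 of all 22180 genes (5.78%). Chance flags about 1 in 20 groups. Array 38 was the array apart in 13 of the 19, and in 513 of the 1283. Some named genes were chosen for a high SD.

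Array 38 was low for Xist (5.02), for the antisense transcript Rab26os (3.85), for the fatty acid binding protein Fabp5 (4.08) and for the complex I gene Ndufa1 (6.98). It was also low for the division genes Kif23 (4.61) and Ccna2 (7.89) and for the replication gene Uhrf1 (5.98). The Notch target Hes1 (6.80), the keratin Krt8 (10.27) and the regional factor Onecut2 (5.25) were low there too. It was high for Cd8b1 (9.03), the CD8 beta chain, and for the Y-linked Eif2s3y (8.72) and Kdm5d (5.75).

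Array 42 was high for the immediate early gene Jund (10.63) and low for the ileal genes Fabp6 (11.75) and Fgf15 (4.41). Array 08 was low for the endothelial Cdh5 (3.99) and high for the stromal Dcn (4.29). Array 04 was high for the interferon-induced Isg15 (4.83). The last 4 of these, Fgf15, Cdh5, Dcn and Isg15, had means below the median gene.

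Of 41 list means, 3 had 1 array apart. The planar polarity mean was lowest in array 38 at 5.36, against 5.47 in each other array. The mean of the cyclin-dependent kinase inhibitors was highest in array 04 at 6.83. The mean of the gastric genes was highest in array 38 at 5.94.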

How the results depend on the processing

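No paired analysis was possible because the title ranges of the Flattop arrays share no replicate numbers. limma on the 4 arrays called 0 genes in each direction under the other normalisations, probe set rules, prior, filter and threshold and without each array, with smallest adjusted p from 0.0763 to 0.679, while the fit on all 10 arrays called 11 higher and 4 lower. Genes counted higher in 38 and 42 by the 2-fold rule numbered 304, with 70 at a minimum difference of 2, 6769 with none, and 389 to 720 when 1 array was left out, which makes separate pairs easier. Those counted lower numbered 1293, with 134, 4495 and 1314 to 2076 in the same settings. The larger counts without array 42 were 720 and 2076, and without array 08 499 genes were higher. Other normalisations and probe set rules kept both counts within 1.5 times. The median SD of 0.28 ranged from 0.24 to 0.27 without 1 array and was 0.41 among genes above the median level. Centring each array moved the median difference of all genes from 0.07 to -0.08 and a second quantile normalisation moved it to 0.00. Of 41 list differences, 9 and 6 changed sign under these, 0 of them among differences of at least 0.5. The median difference of T cell genes stayed between 1.35 and 2.43 in every setting tried, and that of crypt base genes between -1.03 and -0.73. The mean of Cfap126 stayed between 5.17 and 5.67 and its percentile between 54.9 and 64.6.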

Other observations

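Some gastric genes were high in 1 array. Of 12 such genes, chosen after values were seen, 0 were in the top 10% by mean. Tff2, a trefoil peptide of the stomach's mucous neck cells, read 5.07, 6.57, 10.06 and 4.99 in arrays 04, 08, 38 and 42. Gkn1, a secreted product of gastric surface cells, read 4.77, 4.52, 9.53 and 5.12, and its neighbour Gkn2 3.97, 4.11, 6.16 and 4.04. Muc6, a gastric gland mucin, read 4.52, 4.51, 5.90 and 4.54, with array 38 highest for these 4 genes, as it was for Iapp above. Atp4a, the proton pump of parietal cells, read 5.09, 5.02, 5.09 and 5.31, and Pgc, pepsinogen C, 5.21, 4.62, 5.48 and 4.99, with no array far from the others.

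Receptors of natural killer and innate-like lymphocytes were uneven. Of 12 such genes, likewise chosen after values were seen, 2 were in the top 10%, Klrd1 and Cd96. Klra5 read 3.53, 5.84, 8.08 and 6.97 and Klrh1 4.26, 5.02, 8.13 and 7.01, both highest in 38 and lowest in 04. Klrk1, the NKG2D receptor, read 3.11, 2.95, 3.06 and 3.01, and Ncr1, the NKp46 receptor, 4.43, 3.77, 3.84 and 3.83, both below the median gene in every array. By the 2-fold rule 5 of the 12 were counted higher in 38 and 42 (background 1.37%) and 0 lower. Because the genes were picked with their values known, this share only describes them. Klrd1 is also a member of the cytotoxic list. Slamf7, a receptor of cytotoxic lymphocytes, read 5.17, 5.96, 7.73 and 7.06, with the same order of highest and lowest array.

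Probe sets of 2 genes outside any list ranked high, and both were chosen after their values were seen. Vmn1r233, a vomeronasal receptor gene, read 12.68, 12.73, 12.76 and 12.70 and Cnbd2 12.84, 12.57, 12.52 and 12.54, at ranks 24 and 30 of 22180. The SD over the 4 arrays was 0.03 for the first and 0.15 for the second. What these probe sets detect was not tested. By gene class, 18 of 478 miRNA genes and 24 of 1926 lncRNA genes were in the top 10%, against 2118 of 18964 protein-coding genes.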
